A study of Mus musculus with 40 samples.

Results

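The 10 genes described here are markers of leptomeningeal fibroblasts, the cells that build the thin pia and arachnoid membranes around the brain and spinal cord. They were taken by symbol from a list of such markers (Fmod, Dcn, Lum, Ogn, Col1a1, Col1a2, Slc22a6, Slc6a13, Igf2 and Aldh1a2), and all 10 were found among the 40213 gene symbols of the count files. The study's own plots name Fmod and Slc22a6, so these were picked with these data in view. The series holds 40 poly(A) RNA-seq libraries of male C57BL/6N mice aged 8 weeks, 20 of midbrain and 20 of spinal cord, with 4 libraries in each of 5 groups per tissue. Per the paper, 8 weeks was the age when the mice were obtained, so they were older at sampling. Con mice were given saline in place of MPTP, and saline at the acupoint GB34. All other mice received MPTP, a neurotoxin used to model Parkinson's disease, at 20 mg/kg in 4 intraperitoneal injections 2 hours apart. MPTP-Veh mice then received saline at the acupoint GB34 on the hind limb, and MPTP-SU mice received SU-Eohyeol pharmacopuncture (SUEHP), a herbal extract injected at the same point, 4 times. MPTP-SU+S mice had SUEHP with 3 mg/kg of a CB1 cannabinoid receptor antagonist, named SR141714A in the labels, and MPTP-SU+T mice had SUEHP with 5 mg/kg of the PPARγ inhibitor T0070907. MPTP models an acute toxic loss of dopamine neurons, and the acupoint lies far from both tissues sampled. The labels do not say which midbrain and spinal cord libraries came from 1 animal, nor whether libraries of a group were prepared separately, so p-values measure only the spread between these libraries.

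Leptomeningeal fibroblasts lay down the collagen-rich matrix of the meninges, carry solutes between cerebrospinal fluid and tissue, and secrete growth factors and retinoic acid that act on the neighbouring brain. The membranes adhere to the surface of the brain and cord, and their transcripts are part of a bulk library of either tissue. Fmod (fibromodulin), Dcn (decorin), Lum (lumican) and Ogn (osteoglycin) encode small leucine-rich proteoglycans that bind collagen fibrils. Col1a1 and Col1a2 encode the chains of type I collagen. Slc22a6 is the organic anion transporter OAT1, and Slc6a13 is the GABA and taurine transporter GAT2. Igf2 is an imprinted growth factor of the insulin family that the leptomeninges and choroid plexus secrete, and Aldh1a2 makes retinoic acid. In bulk libraries such as these, fewer cells of a type and less RNA per cell cannot be told apart.

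Promoter sequences are shown for 3 members that went different ways in the results that follow: Fmod and Slc22a6, lower in every spinal cord library of MPTP-SU than in any of MPTP-Veh, and Ogn, for which these groups overlapped. The windows are from RefSeq on GRCm38.p6 and run from 250 bases before to 50 bases after the annotated start, on the plus strand. Fmod lies at chr1:134037004-134037303, Slc22a6 at chr19:8617746-8618045 and Ogn at chr13:49607765-49608064. Capitals mark the letters CCAAT (the CCAAT box) in the first pair and TATAAA (the TATA box) in Ogn, on either strand.
Fmod: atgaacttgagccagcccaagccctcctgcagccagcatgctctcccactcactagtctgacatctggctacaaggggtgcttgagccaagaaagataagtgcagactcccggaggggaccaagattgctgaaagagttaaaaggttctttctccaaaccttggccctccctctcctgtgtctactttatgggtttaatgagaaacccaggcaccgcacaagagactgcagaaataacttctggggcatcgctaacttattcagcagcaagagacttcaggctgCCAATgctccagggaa
Slc22a6: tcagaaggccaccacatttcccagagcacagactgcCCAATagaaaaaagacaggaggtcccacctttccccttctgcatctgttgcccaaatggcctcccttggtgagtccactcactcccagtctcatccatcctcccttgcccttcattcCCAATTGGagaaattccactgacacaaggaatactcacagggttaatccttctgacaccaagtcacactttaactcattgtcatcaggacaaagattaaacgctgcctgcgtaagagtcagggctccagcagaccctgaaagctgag
Ogn: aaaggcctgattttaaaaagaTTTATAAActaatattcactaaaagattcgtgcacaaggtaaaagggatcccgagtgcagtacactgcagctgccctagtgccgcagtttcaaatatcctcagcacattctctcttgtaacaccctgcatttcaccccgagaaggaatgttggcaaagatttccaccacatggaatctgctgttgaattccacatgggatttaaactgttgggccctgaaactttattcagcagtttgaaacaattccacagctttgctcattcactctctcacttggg
Windows were found for 7 members, in 12 windows, and not for Dcn, Lum and Col1a1. CCAAT, searched on both strands, was present in 7 of the 12 windows (at least 1 of each gene but Ogn) and in 37.4% of all 32851 windows of this length. TATAAA was present in 1 of the 12 (Ogn) and in 13.6% of all windows; in Ogn its forward and reverse matches overlap. GGGCGG (the GC box) was present in 4 of the 12 (Slc6a13, Col1a2 and Igf2) and in 35.7% of all windows. These are matches of letters and not mapped binding sites.

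The libraries held 11958200 to 16639823 estimated counts in midbrain and 14642808 to 16615378 in spinal cord. The 10 members together took 0.00929% to 0.0572% of a midbrain library (median 0.0262%) and 0.0289% to 0.0780% of a spinal cord library (median 0.0439%). One midbrain library, MPTP-Veh 4, stood apart from the others: mitochondrially encoded transcripts were 1.35% of its counts against 9.92% to 17.5% in the other 19, and its summed oligodendrocyte markers were 35719 CPM against 10071 to 14508 CPM. Results of the midbrain contrasts with MPTP-Veh, of the interaction with tissue and of the pairs of members are therefore also given without it. Markers of astrocytes and oligodendrocytes were detected in every library of both tissues.

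All 10 members passed the low-count filter in both tissues. Levels are given as CPM, the gene's counts scaled to a common library total after the trimmed mean of M-values (TMM) correction. Per kb of the longest annotated transcript, Igf2 was the most abundant member in midbrain with a median of 21.2 CPM per kb, followed by Fmod at 8.06, Dcn at 7.09 and Ogn at 6.55. Lum at 1.74 and Slc22a6 at 1.59 CPM per kb were the least abundant there. In spinal cord the order began with Ogn at 27.5 CPM per kb, then Igf2 at 21.1, Dcn at 15.2, Col1a2 at 13.8 and Fmod at 13.7, and ended with Lum at 2.48 and Slc22a6 at 0.433. The ranges over 20 libraries overlapped between neighbours in both orders, except for Lum (1.43 to 5.27 CPM per kb) and Slc22a6 (0.10 to 0.901) in spinal cord. Slc22a6 in spinal cord rests on 6 to 57 estimated counts per library, so its values there are the least precise.

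The coefficient of variation was larger in midbrain than in spinal cord for every member except Slc22a6. Over the 20 midbrain libraries the highest value of a member was 3.51 times (Dcn) to 15.2 times (Slc6a13) its lowest, and its coefficient of variation was 29.7% to 64.4%. In spinal cord the highest was 2.15 times (Aldh1a2) to 9.01 times (Slc22a6) the lowest, with a coefficient of variation of 23.5% to 52.0%. A single midbrain library, MPTP-SU+S 1, was the lowest of 20 for 9 of the 10 members, the exception being Dcn, which was lowest in MPTP-Veh 4. Fmod was 4.91 CPM in MPTP-SU+S 1 and 61.2 CPM in the highest library, Con 4. In spinal cord, MPTP-SU+S 1 was the highest library for 6 members, and Con 1 the lowest for Fmod, Slc22a6 and Slc6a13.

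The proteoglycans, the collagens and the transporters differed between the tissues, and the growth factor and the retinoic acid enzyme did not pass the test. In the fit over 40 libraries, 8 of 10 members were called (adjusted p under 0.05 and a fold over 1.5), against 22% of 17426 genes (12.2% higher and 9.8% lower in spinal cord). Ogn was 76.1 ± 25.7 CPM (SD, n = 20) in spinal cord and 18.5 ± 10.1 CPM (SD, n = 20) in midbrain, a 4.28-fold difference with no overlap between any libraries of the tissues (adjusted p = 3.49e-12, edgeR's quasi-likelihood test). Col1a2 (2.72-fold), Col1a1 (2.50-fold), Dcn (2.28-fold), Fmod (1.66-fold) and Lum (1.62-fold) were also higher in spinal cord. The transporters were lower there. Slc22a6 was 1.74 ± 0.908 CPM (SD, n = 20) in spinal cord and 7.47 ± 3.77 CPM (SD, n = 20) in midbrain, 4.33-fold lower, and Slc6a13 was 1.80-fold lower. Igf2 (log2 difference -0.12, adjusted p = 0.420) and Aldh1a2 (-0.11, adjusted p = 0.477) were not called. In the 8 Con libraries alone several of these values were different. Fmod was lower in spinal cord by 0.81 on the log2 scale (edgeR's adjusted p = 0.00299), Igf2 (-1.43, adjusted p = 0.000124) and Aldh1a2 (-1.07, adjusted p = 0.000296) were called lower as well, and Lum was not called (-0.04, adjusted p = 0.913). The log2 difference there was 1.19 for Ogn against 2.10 over all groups, 0.65 against 1.32 for Col1a1, 0.86 against 1.44 for Col1a2 and 0.93 against 1.19 for Dcn. For the transporters it was -3.37 against -2.11 (Slc22a6) and -1.82 against -0.85 (Slc6a13). All 6 were called in the Con libraries too.

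In the spinal cord, the contrast of MPTP-Veh with Con asks what MPTP did to the cord without treatment. Fmod was 22.6, 33.7, 39.5 and 29.6 CPM in the Con libraries and 58.9, 60.2, 52.5 and 48.5 CPM in the MPTP-Veh libraries. Igf2 was 58.1, 80.5, 93.6 and 57.4 CPM in Con and 113, 126, 114 and 107 CPM in MPTP-Veh. Every MPTP-Veh library was above every Con library for both genes, as for 2.26% of all tested genes. The log2 fold changes were 0.81 (SE 0.21) for Fmod and 0.67 (SE 0.21) for Igf2, with adjusted p = 0.191 and 0.234 from edgeR's quasi-likelihood test. None of the 10 members was called, as none of the 16682 tested genes was (0%). At an unadjusted p under 0.05 there were 5 members, all higher in MPTP-Veh (Fmod, Igf2, Slc22a6, Slc6a13 and Aldh1a2), against 12.8% of all genes. Of the other members, Lum had a log2 fold change of 0.45, Col1a1 of 0.26, Col1a2 of 0.09, Dcn of -0.09 and Ogn of -0.27. In all, 2 of 10 members had a log2 fold change below 0, against 50.6% of all genes, and the members' median was 0.42 against -0.0019 for all genes.

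The contrast of MPTP-SU with MPTP-Veh asks what SUEHP did after MPTP. Fmod was 33.5, 24.5, 37.6 and 37.2 CPM in MPTP-SU, below all 4 MPTP-Veh libraries and inside the range of Con. Igf2 was 64.0, 72.4, 95.3 and 75.6 CPM in MPTP-SU. Slc22a6 was 1.34, 3.59, 1.64 and 2.43 CPM in MPTP-Veh and 0.810, 0.626, 1.21 and 1.12 CPM in MPTP-SU, the latter from 10 to 20 counts. Slc6a13 was 6.75, 6.92, 6.81 and 5.97 CPM in MPTP-Veh and 4.49, 4.07, 5.76 and 4.84 CPM in MPTP-SU. Aldh1a2 was 15.0, 19.7, 14 and 15.2 CPM in MPTP-Veh and 13.7, 11.2, 12.6 and 9.93 CPM in MPTP-SU. For these 5 genes, Fmod, Igf2, Slc22a6, Slc6a13 and Aldh1a2, every MPTP-SU library was below every MPTP-Veh library, which held for 1.86% of all tested genes. Each has an exact permutation p = 0.0286, the smallest that 4 against 4 libraries allow. The log2 fold changes were -0.73 (SE 0.21) for Fmod, -1.24 (SE 0.43) for Slc22a6, -0.46 (SE 0.21) for Slc6a13, -0.58 (SE 0.21) for Igf2 and -0.43 (SE 0.18) for Aldh1a2.

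None of these passed the correction over all genes: adjusted p was 0.999 for every member, and 0% of all genes were called. At an unadjusted p under 0.05 the same 5 were lower and Ogn was higher, against 3.81% of all genes. Ogn was 60.0, 77.9, 54.7 and 51.5 CPM in MPTP-Veh and 87.1, 90.2, 130 and 54.2 CPM in MPTP-SU, with a log2 fold change of 0.56 (SE 0.26) and overlapping groups. Dcn (0.16), Col1a1 (0.11), Col1a2 (0.06) and Lum (-0.03) had log2 fold changes within 1 SE of 0. Col1a1 ran from 48.6 to 77.0 CPM in MPTP-Veh and from 51.4 to 83.5 CPM in MPTP-SU, Col1a2 from 60.7 to 84.0 and from 61.4 to 92.3 CPM, Dcn from 43.7 to 84.5 and from 55.6 to 88.8 CPM, and Lum from 4.59 to 10.2 and from 5.15 to 9.28 CPM. These ranges lie largely on each other. In all 6 of 10 members were below 0, against 49.9% of all genes. Fitted by edgeR on these 8 libraries alone, Fmod was called (adjusted p = 0.00532), against 5 of 15997 genes. Over the 18 alternative fits by edgeR, DESeq2 or limma-voom, the lowest adjusted p of Igf2 was 0.00535, and Igf2 was called in none.

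**Figure D1:**
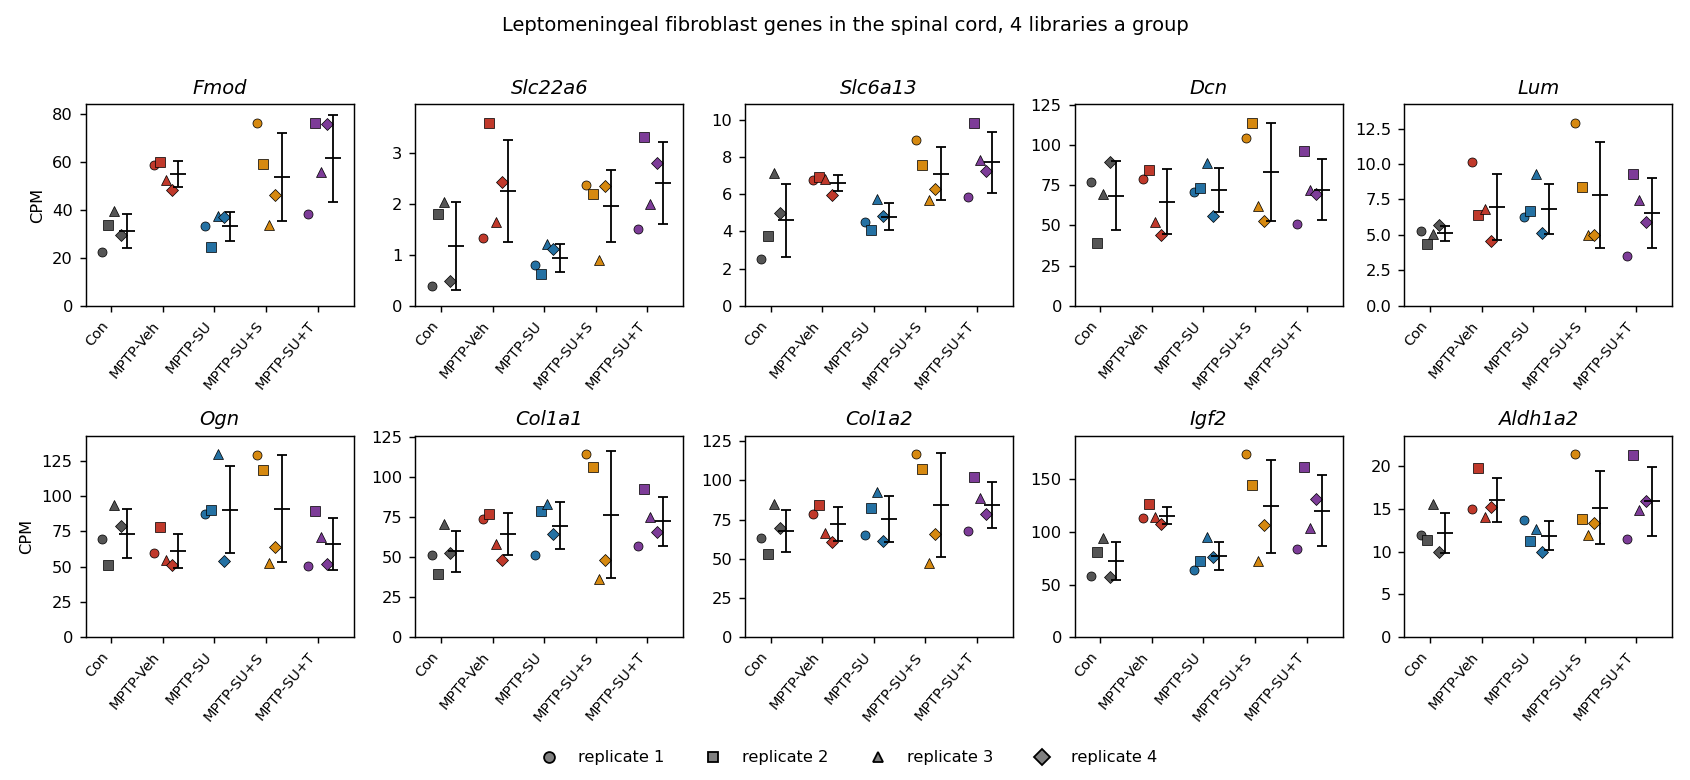
CPM of the 10 members in the 20 spinal cord libraries; each point is a library, its shape giving the replicate number, set on the x axis by group, and the bars are the mean ± SD. Fmod, Igf2, Slc22a6, Slc6a13 and Aldh1a2 lie lower in MPTP-SU than in MPTP-Veh without overlap, and the collagens, Dcn and Lum overlap.

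The antagonist groups ask whether levels differ when a CB1 or PPARγ antagonist is added to SUEHP. No group had an antagonist without SUEHP, so an antagonist's own effect cannot be told apart from a block of SUEHP. Per the paper, the antagonists were injected in a mixture of ethanol, Alkamuls and saline. It does not say that MPTP-SU mice had this mixture. With the CB1 antagonist (MPTP-SU+S), Fmod was 76.4, 59.3, 33.6 and 46.2 CPM and Igf2 was 173, 144, 72.7 and 107 CPM, with the third library of both inside the range of MPTP-SU. At this contrast 4 members had an unadjusted p under 0.05, all higher than in MPTP-SU (Fmod, Igf2, Slc22a6 and Slc6a13), against 5.49% of all genes; log2 fold changes ran from 0.57 for Slc6a13 to 1.05 for Slc22a6. No member was free of overlap, against 4.19% of all genes, and none was called, nor was any gene (0%). None of the 10 was below 0, against 49.9% of all genes.

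With the PPARγ inhibitor (MPTP-SU+T), Fmod was 38.3, 76.1, 55.7 and 76.1 CPM, Slc22a6 was 1.5, 3.30, 2.00 and 2.80 CPM, and Slc6a13 was 5.86, 9.85, 7.87 and 7.27 CPM. For these 3 genes every library was above every MPTP-SU library, as for 3.94% of all genes. The log2 fold changes were 0.89 (SE 0.21), 1.35 (SE 0.42) and 0.69 (SE 0.21), with adjusted p = 0.143, 0.222 and 0.222 from edgeR. Igf2 (0.65) and Aldh1a2 (0.43) were also at an unadjusted p under 0.05, so 5 members were, against 12.1% of all genes. No member was called, against 0.024% of all genes, and 2 of 10 were below 0 (Lum and Ogn, at -0.05 and -0.45), against 48.1% of all genes. The contrasts share the MPTP-Veh and MPTP-SU libraries, so that they are not separate evidence on a gene. DESeq2 and limma-voom also called 0 members in each of the 4 spinal cord contrasts, and at most 4 of all genes in any of them. By edgeR, a test of any difference among the 5 groups called no member in spinal cord, with the smallest adjusted p = 0.0593 for Fmod and 0.106 for Igf2, against 0.15% of all genes. For that test DESeq2 called 2 (Fmod and Igf2), against 748 of 16682 genes, and limma-voom 0, against 23.

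In the midbrain the fitted values of Fmod, Igf2, Aldh1a2, Slc22a6, Lum, Slc6a13 and Col1a2 had the opposite sign between MPTP-Veh and Con. Those of Slc6a13 (-0.14) and Col1a2 (-0.05) were within 1 SE of 0 there. Dcn, Ogn and Col1a1 had the same sign in both tissues. Fmod was 60.4, 59.3, 38.4 and 61.2 CPM in Con and 13.5, 40.2, 36.0 and 29.0 CPM in MPTP-Veh. Igf2 was 171, 257, 140 and 211 CPM in Con and 59.2, 160, 132 and 130 CPM in MPTP-Veh. Ogn was 29.1, 38.3, 23.4 and 37.2 CPM in Con and 6.30, 20.2, 22.5 and 4.79 CPM in MPTP-Veh. The enzyme Aldh1a2 ran from 19.1 to 30.8 CPM in Con and from 9.72 to 19.5 CPM in MPTP-Veh, and the transporter Slc22a6 from 9.78 to 13.6 and from 2.80 to 10.6 CPM. Dcn ran from 27.0 to 43.3 CPM in Con and from 12.3 to 33.6 CPM in MPTP-Veh. Of these, Ogn alone had no overlap (exact permutation p = 0.0286), which was 1 of 10 members against 6.03% of all genes lower without overlap. On the log2 scale the fitted fold change of Ogn was -1.23 (SE 0.48, edgeR's adjusted p = 0.154), beside -0.88 for Fmod, -0.81 for Aldh1a2 and -0.70 for Igf2. Col1a1 was at 0.36, with 94.9 CPM in MPTP-Veh 4 and 17.9 to 33.0 CPM in the other MPTP-Veh libraries. Without that library the log2 fold changes were -0.96 for Ogn, -0.87 for Fmod, -0.73 for Igf2, -0.71 for Aldh1a2 and -0.33 for Col1a1, none called. With all 4, no member was called either, against 0.018% of all genes. At an unadjusted p under 0.05 there were 3 members, all lower (Ogn, Igf2 and Aldh1a2), against 23.7% of all genes. A log2 fold change below 0 was seen in 9 of 10 members, against 50% of all genes.

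**Figure D2:**
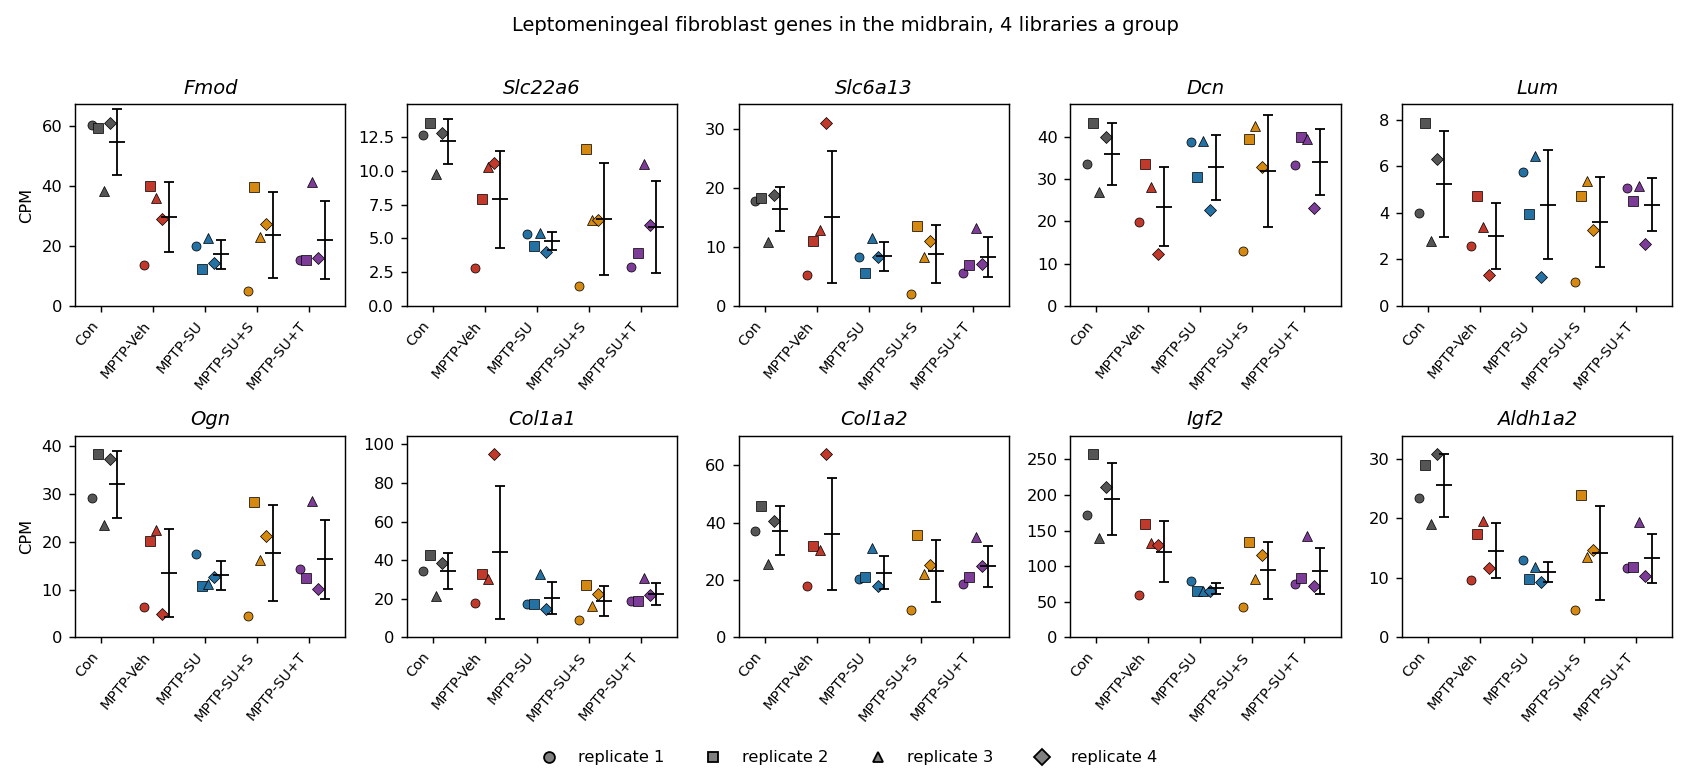
CPM of the 10 members in the 20 midbrain libraries, drawn as for the spinal cord. Fmod, Igf2 and Aldh1a2 are highest in Con; Slc6a13, Col1a1 and Col1a2 have their highest value in MPTP-Veh 4.

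Between MPTP-SU and MPTP-Veh in midbrain, Fmod was 19.8, 12.3, 22.6 and 14.2 CPM in MPTP-SU, and Igf2 was 79.8, 65.0, 64.8 and 65.2 CPM. Both overlapped MPTP-Veh through its first library. By edgeR no member was called, and none was free of overlap, while 13.5% of all genes were called, 9.1% lower, and 21.9% did not overlap. Without MPTP-Veh 4 the share of genes called was 3.4%, 2.09% lower, and again no member was called. With all libraries DESeq2 called 2 members (Col1a1 and Igf2), against 2779 of 16629 genes, and limma-voom 0, against 1708. Without MPTP-Veh 1, edgeR called 2 members, against 2931 of 16873 genes. Without MPTP-Veh 3 it called 1, against 3543 of 16891. At an unadjusted p under 0.05 there were 2 members, both lower, against 39.8% of all genes: Col1a1 (-1.09, SE 0.42, adjusted p = 0.0684) and Igf2 (-0.81, SE 0.32, adjusted p = 0.0740). The Col1a1 value rests on MPTP-Veh 4: without it the log2 fold change was -0.39. Slc6a13 moved likewise from -0.83 to -0.21 and Col1a2 from -0.67 to -0.24, while Fmod was at -0.78 with that library and -0.79 without it, and Igf2 at -0.81 and -0.77 (edgeR's adjusted p = 0.135 without it). In all 8 of 10 members were below 0, against 50% of all genes. Neither antagonist contrast gave a call in midbrain: no member had an unadjusted p under 0.05 (1.65% of all genes did for MPTP-SU+S and 1.7% for MPTP-SU+T) and 0% of genes were called in both. Over the 5 groups, Igf2 passed (adjusted p = 0.0356), from 195 ± 50.9 CPM (SD, n = 4) in Con to 68.7 ± 7.41 CPM (SD, n = 4) in MPTP-SU, against 7.1% of all genes. It no longer passed when any of 10 single libraries was left out: Con 1, 2 or 4, any of the 4 MPTP-SU libraries, MPTP-SU+S 3, or MPTP-SU+T 1 or 2. Fmod was at an adjusted p = 0.0889.

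**Figure D3:**
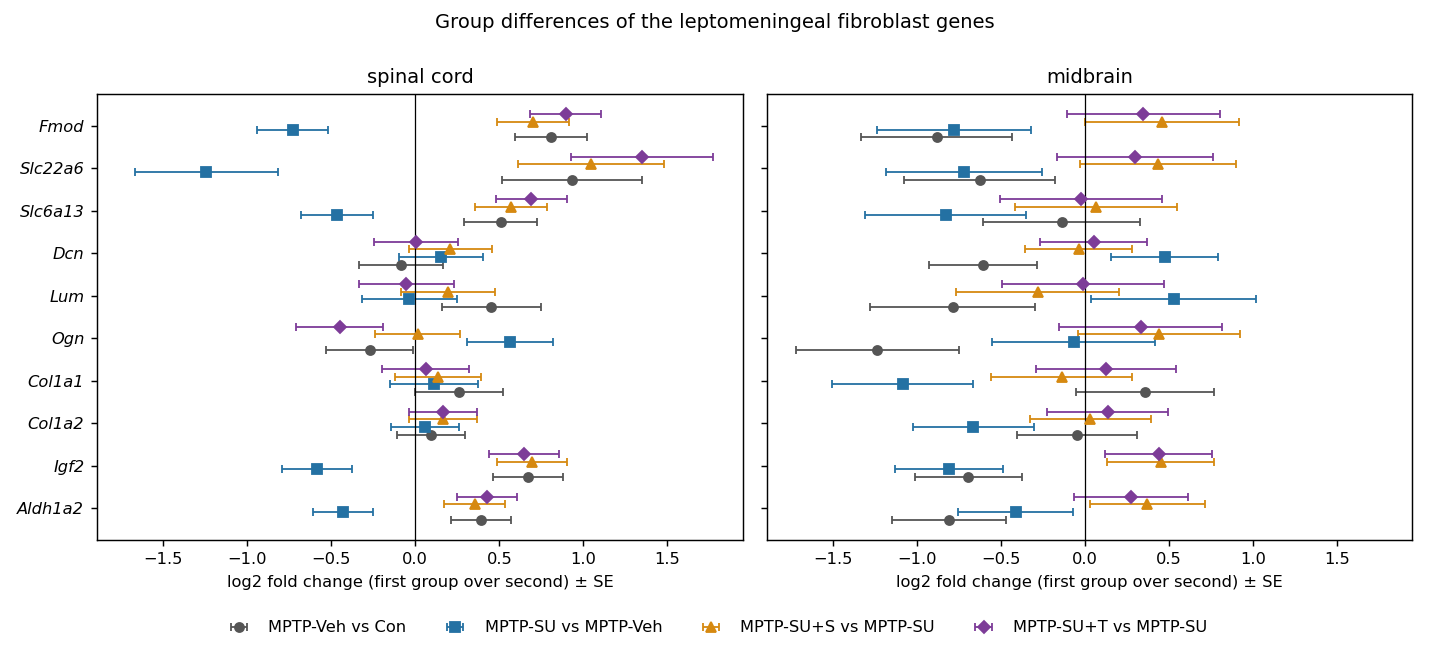
Fitted log2 fold changes of the 10 members with their standard errors in the 4 contrasts, for both tissues. In MPTP-Veh against Con, Fmod is at 0.81 in spinal cord and -0.88 in midbrain.

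The opposite signs in MPTP-Veh against Con were tested as an interaction of tissue with contrast. The difference of log2 fold changes, spinal cord minus midbrain, was 1.38 (SE 0.41, adjusted p = 0.0509) for Igf2, 1.70 (SE 0.52, adjusted p = 0.0548) for Fmod and 1.21 (SE 0.40, adjusted p = 0.0656) for Aldh1a2, in edgeR's test. In the same test it was 1.57 (SE 0.67, adjusted p = 0.127) for Slc22a6 and 1.24 (SE 0.59, adjusted p = 0.165) for Lum. No member passed, against 3.12% of all genes. Without midbrain MPTP-Veh 4 the differences were 1.40 for Igf2, 1.68 for Fmod and 1.11 for Aldh1a2, with edgeR's adjusted p = 0.0707, 0.0828 and 0.133, against 1.4% of all genes passing. Col1a1 moved from -0.07 to 0.60 and Slc6a13 from 0.67 to 1.27 without that library, neither passing. Slc22a6 was then at 1.72 and Lum at 1.01, also not passing. In the other contrasts no member passed, against 16.8% of all genes for MPTP-SU (11.5% without MPTP-Veh 4, again with no member) and 0% for each antagonist group.

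Within groups, the members varied together from library to library. After the mean of each group was taken out, the 45 pairs had a median Pearson's r of 0.735 in midbrain (0.198 to 0.963) and 0.652 in spinal cord (-0.04 to 0.973). An r over 0.5 was found in 35 pairs in midbrain (77.8%) and 37 in spinal cord (82.2%), against 18.7% and 5.34% of all pairs of tested genes, whose median r was 0. Each of the 20 libraries in a tissue enters every pair, so the pairs are not independent. The tightest pair was Col1a1 and Col1a2, with r = 0.973 in spinal cord (Spearman's rho 0.946, permutation p = 2e-05, adjusted over the 90 pairs of both tissues 0.0003) and 0.963 in midbrain. Leaving out the 2 libraries farthest from the median gave 0.954 and 0.957.

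In spinal cord, the matrix genes other than Fmod (Dcn, Lum, Ogn, Col1a1 and Col1a2) had r from 0.777 to 0.973 with each other. Fmod, Slc22a6 and Igf2 had r from 0.723 to 0.888 with each other. Between these sets r ran from -0.04 (Slc22a6 and Dcn) to 0.779 (Igf2 and Col1a2), beside 0.773 for Igf2 and Slc22a6. By Spearman's rho, Igf2 was at 0.645 with Col1a2, 0.678 with Col1a1 and 0.809 with Slc22a6. Without MPTP-SU+S 1 and MPTP-SU+S 3, r was 0.617 for Igf2 and Col1a2. Without Con 1 and MPTP-SU+S 3, it was 0.710 for Igf2 and Slc22a6. The sets were read off the values of r over all libraries, and Slc6a13 and Aldh1a2 were put in neither. Slc6a13 had r = 0.767 with Fmod, 0.703 with Igf2, 0.598 with Slc22a6, 0.652 with Col1a2, 0.439 with Dcn and 0.536 with Lum. Without Con 1 and Con 3, Slc6a13 was at 0.761 with Dcn, 0.849 with Lum and 0.744 with Fmod. Aldh1a2 had its highest r, 0.747, with Igf2, beside 0.706 with Fmod, 0.583 with Slc22a6 and 0.710 with Ogn. In midbrain over all 20 libraries, r was 0.930 for Dcn and Lum, 0.958 for Slc6a13 and Col1a2, 0.198 for Dcn and Col1a1 and 0.435 for Ogn and Col1a2. The low values rest on MPTP-Veh 4. Without it all 45 midbrain pairs had r over 0.5 (0.576 to 0.974, median 0.878), with 0.749 for Dcn and Col1a1 and 0.841 for Ogn and Col1a2. The share of all pairs of tested genes over 0.5 was not computed without that library. The differences between pairs and between tissues were not tested.

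**Figure D4:**
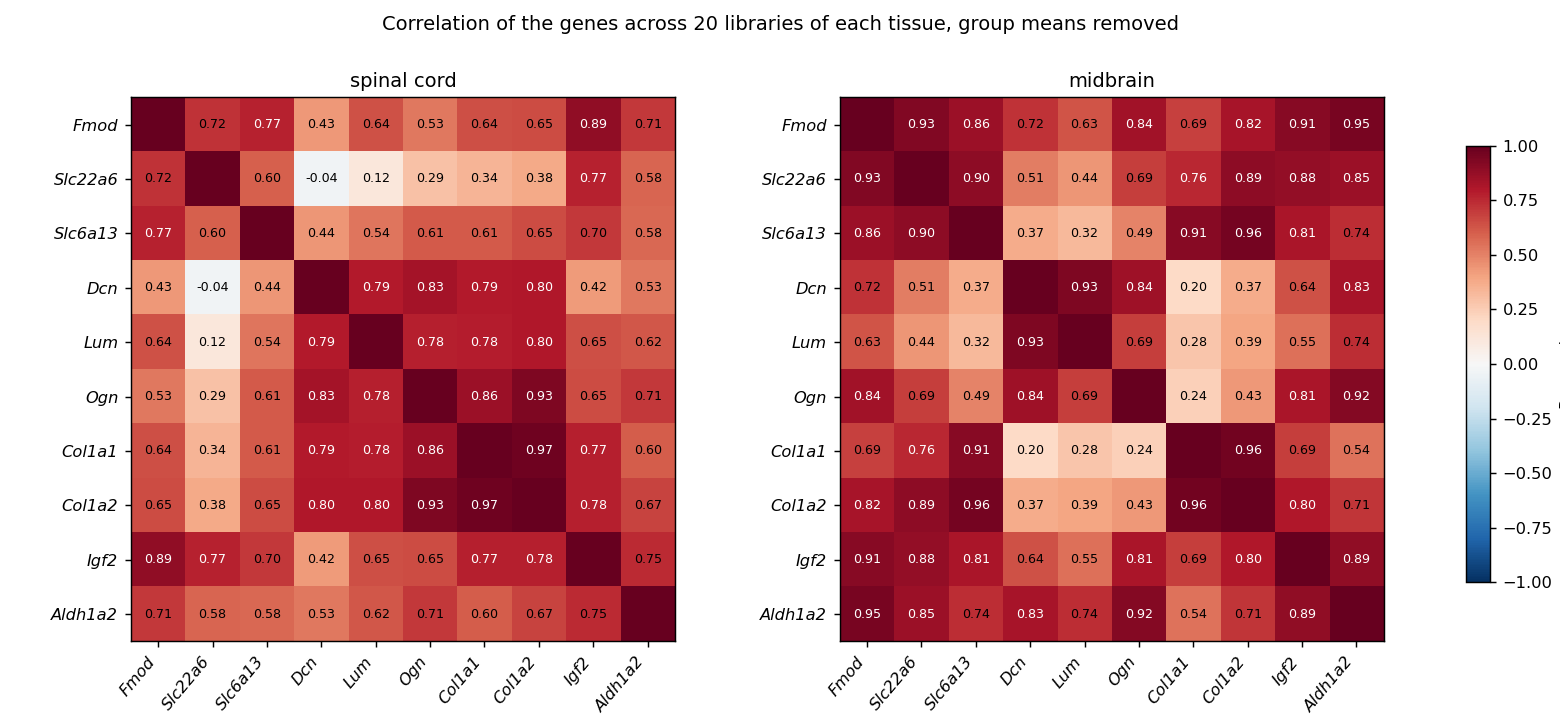
Pearson's r between members over 20 libraries of each tissue, after group means were removed. In spinal cord the collagens and the proteoglycans other than Fmod have r of 0.777 to 0.973 with each other; in midbrain Dcn and Col1a1 are at 0.198 over all libraries and at 0.749 without MPTP-Veh 4, which is included in the plot.

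The genes whose within-group pattern was nearest to the members' mean, among all tested non-members, were Serping1 (r = 0.975), Hcar1, Itih2, Islr and Slc13a4 in midbrain and Timp3 (0.936), Plaat3, Akr1b3, Efemp1 and Serping1 in spinal cord. Serping1 encodes the C1 inhibitor of complement, and Slc13a4 a sulfate transporter. Of the other leptomeningeal genes listed, 11 of 25 in midbrain and 8 of 24 in spinal cord were among the nearest 100.

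Markers of neighbouring tissues moved with the members to unequal degrees. In spinal cord, the summed level of 12 spinal root and sensory ganglion markers ran from 524 to 1779 CPM. Within groups it went with Dcn (r = 0.881, rho 0.771, adjusted permutation p = 0.0071), Ogn (0.860), Col1a2 (0.826), Col1a1 (0.779) and Lum (0.734). It was at 0.320 for Fmod, 0.361 for Igf2 and -0.07 for Slc22a6, with adjusted permutation p = 0.432, 0.402 and 0.928. By group, 7 of 7 tested root markers were lower in MPTP-Veh than in Con (median log2 fold change -0.60) and 7 of 7 higher in MPTP-SU than in MPTP-Veh (0.48), none called; Ogn was at -0.27 and 0.56. The part of root tissue in these values was not tested. Markers of perivascular and border macrophages had r of 0.63 to 0.87 with 9 members in spinal cord and 0.33 with Slc22a6. In midbrain these markers had r of 0.64 to 0.85 with all 10 members, highest for Fmod (adjusted permutation p = 0.0071), and passed for all but Slc6a13 and Col1a1. Mural cell markers there passed for Slc6a13 (r = 0.795), Col1a1 (0.794), Col1a2 (0.791), Igf2 (0.729), Slc22a6 (0.644) and Fmod (0.638), with adjusted permutation p of 0.0105 to 0.0359. Of these, Slc6a13, Col1a1 and Col1a2 had their highest midbrain value in MPTP-Veh 4. Summed mural markers reached 603 CPM in the MPTP-Veh group and at most 458 CPM in the other groups. All midbrain marker values here include MPTP-Veh 4 and are not given without it. Choroid plexus markers in midbrain, which were 365 to 1904 CPM in Con and 146 to 391 CPM in MPTP-Veh, had r between -0.14 and 0.51 with the members and passed for Dcn (0.471, adjusted permutation p = 0.0300) and Lum (0.514, 0.0235). The part of these cells in the members' values was not tested. Skeletal muscle markers, 52.1 to 274 CPM summed in spinal cord, had r between -0.21 and 0.25 with the members there. Fat markers summed to at most 3.53 CPM in spinal cord and 5.92 CPM in midbrain, with Lep at 0 in every library. In all 340 such values were computed, and 72 passed the adjusted permutation test.

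**Figure D5:**
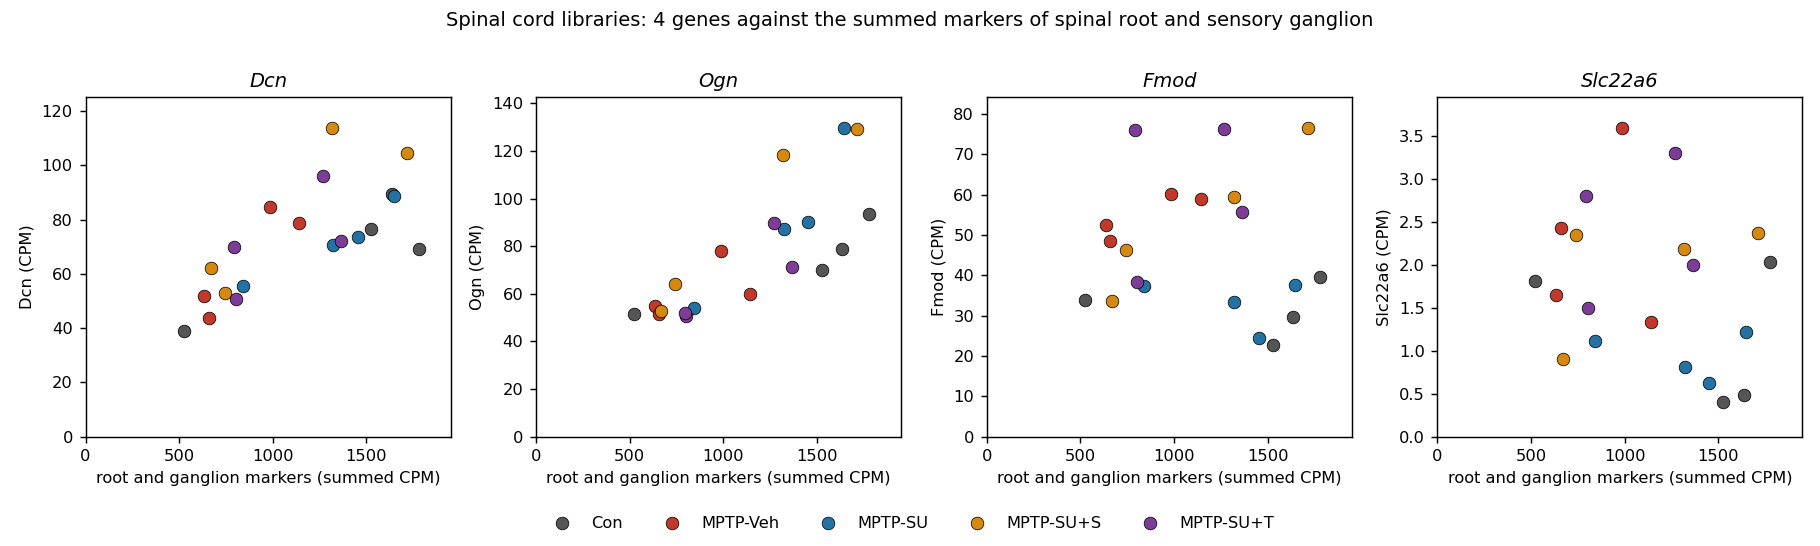
CPM of Dcn, Ogn, Fmod and Slc22a6 against the summed CPM of spinal root and sensory ganglion markers; each point is 1 of 20 spinal cord libraries, coloured by group. Dcn and Ogn go with the markers (r = 0.881 and 0.860 within groups), while Fmod (0.320) and Slc22a6 (-0.07) are scattered.

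The other leptomeningeal genes are listed for comparison; they were chosen with these data known and are no independent support. In spinal cord, 22 of 24 tested were lower in MPTP-SU than in MPTP-Veh (median log2 fold change -0.29), 2 of 24 lower in MPTP-Veh than in Con (0.30), and 1 of 24 lower in MPTP-SU+T than in MPTP-SU (0.34); none was called. Ptgds, which makes prostaglandin D2, was 526 ± 41.1 CPM (SD, n = 4) in MPTP-Veh, 378 ± 67.6 CPM (SD, n = 4) in MPTP-SU and 586 ± 79.3 CPM (SD, n = 4) in MPTP-SU+T. The sum of this list ranged from 806 to 899 CPM for MPTP-Veh, above its 587 to 763 CPM for MPTP-SU without overlap. Mean sums were 841 and 655 CPM, so Ptgds alone was the larger part of both. The sum without Ptgds is not given. Singly, 3 of the 24 genes had no overlap between these groups, counted in either direction. Of all tested genes, 1.86% were lower without overlap. Their share in either direction is not given, so these 2 values are not alike. With the CB1 antagonist (MPTP-SU+S) the sums were 685 to 860 CPM and overlapped those of MPTP-SU. There 1 of 24 genes was lower than in MPTP-SU (median log2 fold change 0.30). Of the retinoic acid pathway, 0 of 13 were called in spinal cord between MPTP-SU and MPTP-Veh, with Rbp4, a retinol carrier, at -0.72 and Cyp26b1, which degrades retinoic acid, at -0.66. In midbrain 5 of 12 retinoic acid genes were called lower in that contrast, led by Cyp26b1 (-2.13), and 3 of 25 other leptomeningeal genes (Col6a2, Crabp2 and Col6a1), against 9.1% of all genes. Of the IGF2 pathway 1 of 14 was called there, Igfbp6 (-2.29). Other proteoglycans had 1 of 11 called (Podn), collagens and their processing enzymes 1 of 22 (Col11a2) and transporters 1 of 11 (Slc6a12), all lower. These calls rest on MPTP-Veh 4: without it 1 of the 12 retinoic acid genes was called, Cyp26b1 (-1.59, edgeR's adjusted p = 0.0309), and none of the other listed genes of these groups was, against 2.09% of all genes lower. Igfbp6 was then at -0.29 and Col11a2 at -0.17, Col6a2 at -0.58 and Crabp2 at -1.15.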

How the data were processed

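The authors prepared poly(A) libraries of mouse midbrain and spinal cord, sequenced them in paired 100-bp reads, and, per the labels, trimmed with fastp, aligned with STAR to GRCm39 and quantified with Salmon; tool versions are not given in the sources used here. The deposited files hold estimated counts per gene symbol as whole numbers. Groups came from the labels, 4 libraries each. The tissue was taken without perfusion. Of 40213 symbols, 16629 were tested in midbrain and 16682 in spinal cord, after edgeR's default low-count filter.

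Each tissue was fitted with all 20 libraries and the 5 groups as terms by edgeR's quasi-likelihood test (edgeR 4.0.16, R 4.3.3) on TMM-scaled counts, p-values were adjusted by Benjamini-Hochberg over all tested genes, and a gene was called at an adjusted p under 0.05 and a fold over 1.5. A fit over all 40 libraries tested tissue and its interaction with each contrast. Single members were also compared by an exact two-sided permutation test of mean log2 CPM. Correlations used log2 CPM with a prior count of 2, after group means were removed, with 100000 permutations (smallest p 1e-05). DESeq2 1.42.0 and limma 3.58.1 served as alternatives. The fits were tested on simulated data.

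All 10 members are named, with up to 3 genes of smallest p per list and the 10 most similar non-members per tissue. The members and lists were chosen with earlier results of these data known. Replicate numbers did not clearly pair libraries. Deviations of same-numbered libraries from their group means correlated at -0.07 to 0.29 in midbrain and -0.11 to 0.13 in spinal cord. In midbrain, 3 of 4 pairs were over 0.1 for MPTP-SU against MPTP-Veh and for MPTP-SU+T against MPTP-SU. No contrast had all 4 pairs over 0.1, so the main fits have no replicate block. Libraries of unlike number were not compared in this way. Promoter windows and transcript lengths are of GRCm38 annotations and were matched by symbol, with no coordinates carried between builds.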

Additional observations from a re-analysis of the deposited data

Results flagged for a closer look

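Within 100 sets of 4 libraries (10 members, 5 groups, 2 tissues), 7 held a library whose gap to the nearest other took a larger part of the group's range than Dixon's test allows, 6 of them in midbrain and 1 in spinal cord; chance gives about 1 in 20, or 5. In midbrain, Con 3 was the lowest Con library for Fmod (38.4 CPM) and for Slc6a13 (10.9 CPM), MPTP-SU+T 3 was the highest of its group for Fmod (41.4 CPM) and Aldh1a2 (19.3 CPM), MPTP-SU 3 the highest for Col1a1 (33.0 CPM) and MPTP-SU 1 the highest for Igf2 (79.8 CPM). In spinal cord, MPTP-SU+S 3 was the lowest of its group for Slc22a6 (0.902 CPM).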

How the results depend on the processing

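The counts of called members were 0 in each of the 8 contrasts within a tissue. By DESeq2, 2 members (Col1a1 and Igf2) were called in midbrain between MPTP-SU and MPTP-Veh, against 2779 of 16629 genes. Among the midbrain groups 4 members differed by DESeq2 (Igf2, Fmod, Col1a1 and Aldh1a2), against 3310 genes. There edgeR gave 1, against 1181 genes, and limma-voom 0, against 542. Among the spinal cord groups DESeq2 gave 2 (Fmod and Igf2), against 748 of 16682 genes, and edgeR 0, against 25. With no low-count filter, 2 members were called in spinal cord for MPTP-Veh against Con, against 19 of 28776 genes. For MPTP-SU+T against MPTP-SU there were 2, against 27 genes, and 4 differed among the groups, against 445. With at least 10 counts in every library 1 differed, against 62 of 14604 genes. Fitted on the 8 libraries of a contrast alone, 1 member (Fmod) was called in spinal cord for MPTP-SU against MPTP-Veh, against 5 of 15997 genes. In the same way 1 was called for MPTP-SU+T against MPTP-SU, against 13 of 15979 genes. Leaving out 1 library at a time gave 0 to 2 called members in midbrain for MPTP-SU against MPTP-Veh. There were 2 without MPTP-Veh 1, against 2931 of 16873 genes, and 1 without MPTP-Veh 3, against 3543 of 16891. In spinal cord it gave 0 to 1 for MPTP-Veh against Con (1, Fmod, without Con 2, against 58 of 16862 genes). It also gave 0 to 3 differing among the midbrain groups and 0 to 2 among the spinal cord groups. Of these, 3 differed among the midbrain groups without MPTP-SU+S 1, against 1015 of 16875 genes. For the spinal cord groups 2 differed without Con 2, against 1224 of 16862 genes. The cause of these changes was not tested.

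In the 8 Con libraries alone, the tissue difference reversed for Fmod (-0.81) and Lum (-0.043), and 9 members were called against 8. Aldh1a2 in midbrain, MPTP-SU+S against MPTP-SU, was -0.0066 to 0.66 on the log2 scale with 1 library left out, changing sign without MPTP-SU+S 2. In all, 19 of 40 log2 fold changes of members in midbrain and 11 of 40 in spinal cord had the other sign under at least 1 alternative, none of them called and the largest 0.43 in size. In midbrain, Fmod (0.35) and Slc22a6 (0.30) for MPTP-SU+T against MPTP-SU were both at -0.16 without MPTP-SU+T 3, Slc22a6 (0.43) for MPTP-SU+S against MPTP-SU was at -0.017 without MPTP-SU+S 2, Ogn (-0.07) for MPTP-SU against MPTP-Veh had the other sign in 6 of 18 alternatives, and Col1a1 (0.36) for MPTP-Veh against Con was at -0.33 without MPTP-Veh 4. The list calls, interactions and pairs without midbrain MPTP-Veh 4 were also chosen after seeing the data; no member passed an interaction in either setting. The median r of the members was 0.609 to 0.878 in midbrain and 0.586 to 0.716 in spinal cord with 1 library left out; the alternatives without MPTP-Veh 4 and MPTP-SU+S 1 (0.804 in midbrain) and without MPTP-SU+S 1 in spinal cord (0.586) were chosen after seeing the data. With the replicate number as a block, the called counts were 0 in all 8 contrasts, 1 and 0 among the groups and 8 between the tissues, and the median r was 0.751 in midbrain and 0.706 in spinal cord, so the block changed no call. Low counts limit Slc22a6 in spinal cord.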
